A study of Caenorhabditis elegans with 4 samples.

Results

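The 996 regions described here are the stretches of chromosome III that the authors called as occupied by RNA polymerase II in late embryos of the nematode *Caenorhabditis elegans*. Membership was set by chromosome name, as every listed region on III, out of 5364 regions on 6 chromosomes. The chromosome was chosen with earlier results of these data known. The list came from chromatin immunoprecipitation and sequencing (ChIP-seq) of hermaphrodite cultures of the wild-type strain N2, genotype wild type, the usual laboratory strain (DR subclone of DB original). Both groups shared strain, stage and temperature: embryos 4.5 hours past the early embryo at 20 °C, with 2 ChIP libraries and 2 libraries of input chromatin. The antibody was the mouse monoclonal 8WG16, which binds the heptapeptide repeat at the C-terminal end of AMA-1, the largest polymerase subunit. Whole embryos were used, so all cell types were pooled, and a region can be occupied in many cells or in few.

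RNA polymerase II transcribes protein-coding genes and many small nuclear RNA genes. In ChIP-seq it gathers at promoters and, on strongly transcribed genes, along the whole gene body, so called stretches range from short peaks to blocks of several kilobases. 8WG16 is known to favour repeats with little phosphorylation, the form the polymerase has when it arrives at a promoter. In *C. elegans* neighbouring genes are often grouped in operons, clusters transcribed from a shared promoter, and autosomes have gene-rich centres between arms that are richer in repeats. Chromosome III is one of the 5 autosomes.

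The authors joined all libraries in a single list, and its only measurement is a q-value per region, a p-value corrected for multiple testing, taken from the authors as given. There is no value per library and no replicate spread, the sequencing depth is unknown, and no test between libraries exists. Chromosomes are therefore set side by side as a description. Intervals in brackets are 95% intervals, exact binomial (Clopper-Pearson) for shares and order-statistic intervals for medians. They cover counting error only, and regions lying close together are not independent. Coordinates are on WormBase build WS180, and regions carry no gene names, since no annotation of that build was used. A stretch without a region is one where nothing passed the authors' threshold, not one shown to lack polymerase.

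Called regions were found in nearly every 100-kb window of chromosome III, although they covered a small part of its sequence. It had the shortest span of the 6 chromosomes, 13.8 Mb to the end of its last region, and carried 18.6% of all regions (17.5 to 19.6%) on 13.8% of the total span. That was 72.3 regions per Mb, second to chromosome I at 92.5 and above chromosome II at 63.4. The 4 other autosomes together had 58.7 regions per Mb and X had 19.7. Regions covered 627 kb, or 4.55% of the span, against 4.22% on the 4 other autosomes and 2.29% on X. Chromosome III holds 2642 protein-coding genes in the gene table of assembly WBcel235, the fewest of the 6. Its 37.7 regions per 100 such genes compared with 27.5 on the 4 other autosomes, where single values ran from 16.3 on V to 48.1 on I.

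Cut into 138 windows of 100 kb from its left end, the chromosome had regions in 135 of them. A region was counted in the window of its midpoint, and the last window is shortened by the end of the span. The 3 empty windows were 2.17% of all (0.451 to 6.22%). Chromosome I had 6 empty windows of 150 (4%), II had 11 of 153 (7.19%), IV had 20 of 175 (11.4%), V had 42 of 209 (20.1%) and X had 37 of 177 (20.9%). The interval on III overlaps those on I (1.48 to 8.50%) and II (3.64 to 12.5%), and it lies below those on IV (7.12 to 17.1%), V (14.9 to 26.2%) and X (15.2 to 27.6%). From X through V, IV and II to III, the share of empty windows fell as density rose, but I was denser than III and had a larger share of empty windows.

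**Figure D1:**
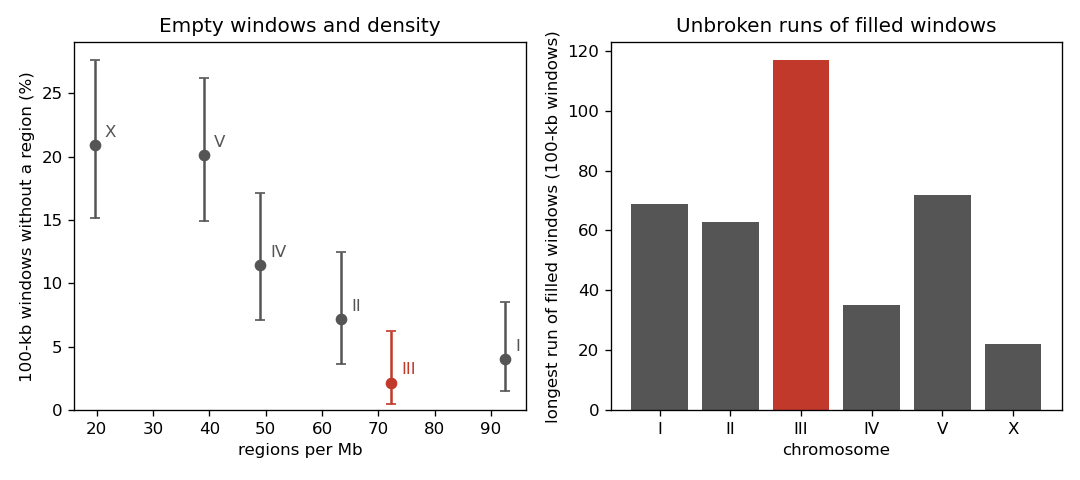
Left, share of 100-kb windows without a region (%, with exact 95% binomial intervals) against regions per Mb for each of the 6 chromosomes. Right, length of the longest unbroken run of windows that each hold at least 1 region. Chromosome III (red) has the lowest share, 2.17%, at 72.3 regions per Mb, and the longest run, 117 windows, for windows counted from its left end.

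From 2100001 to the end of the span every window on III was filled. This unbroken run of 117 windows, 11.7 Mb nominally, held 871 of the 996 regions. The longest such run was 72 windows on V, 69 on I, 63 on II, 35 on IV and 22 on X. The rank of III on empty windows held with windows shifted by 50 kb (2.90%, against 4% on I) and with 50-kb windows (13.4%, against 14.7% on I). The unbroken run itself depends on where the windows start. With the shift, 4 windows on III were empty. The run was then broken by an empty window within the 105 kb gap from 11946624 to 12051687. With 200-kb windows III, I and IV all had 0 empty windows. For the 50% of listed regions with the smallest q-values the order with I turned: 12 of 138 windows were empty on III (8.70%) and 12 of 150 on I (8%).

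The windows of III were not evenly filled, with 0 to 21 regions each, but their counts were less uneven than on most other autosomes. They held a median of 7 regions, with an interquartile range of 4 to 10 and a mean of 7.22 ± 4.38 (SD over 138 windows). The variance was 2.66 times the mean, against 3.05 to 3.78 on the other autosomes and 1.45 on X, where counts are low. The Gini coefficient, 0 for equal windows and nearing 1 when all regions share a single window, was 0.337 on III. It was 0.343 on I, 0.393 on II, 0.432 on IV, 0.464 on X and 0.517 on V. The fullest 10% of windows held 22.6% of the regions on III, close to the 21.6% on I and less than the 31.8% on V. The counts of neighbouring windows had a Pearson r of -0.02 over the 138 windows in order, given as a description, so the count of a window said little about that of the next.

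**Figure D2:**
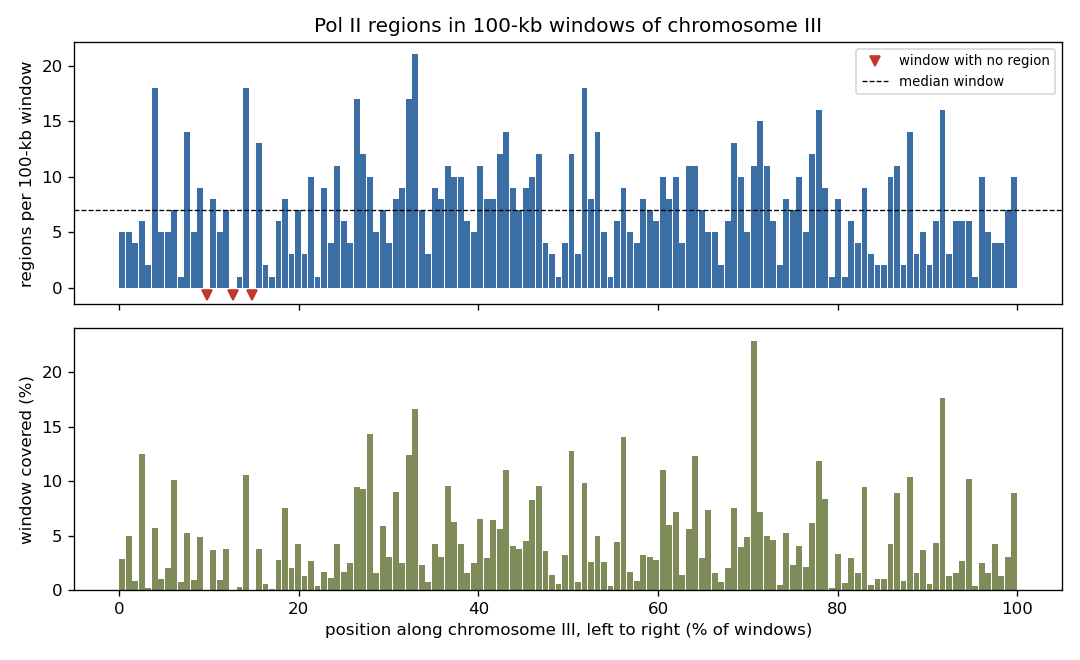
Regions per 100-kb window (top) and share of each window covered by regions (%, bottom) along chromosome III from left to right, with the place of a window given as a percentage of the 138 windows. Triangles mark the 3 windows without a region, all in the left part of the chromosome, and the dashed line is the median of 7 regions.

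Over larger distances III had the smallest ratio between its fullest and its sparsest complete megabase. The 13 complete megabases of III held from 53 to 95 regions each, a ratio of 1.79 between the fullest and the sparsest. The same ratio was 2.21 on I, 2.83 on X, 2.97 on II, 4.53 on V and 5.14 on IV. Such a ratio tends to grow with more megabases and with fewer regions in each. III had the fewest complete megabases. Their median of 73 regions compared with 91.5 on I, 65 on II, 49 on IV, 38 on V and 18 on X. The sparsest megabase was the third, 2000001 to 3000000, with 53 regions over 2.51% of its sequence. The fullest lay side by side, 4000001 to 5000000 with 93 regions and 5000001 to 6000000 with 95. By covered bases the order differed, since the megabase from 9000001 to 10000000 had 83 regions but the largest coverage, 6.32%. The next to last complete megabase, 11000001 to 12000000, was again sparse, with 56 regions.

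The centre of III was a little fuller than its ends. Divided into 3 parts of equal length, the left part had 321 regions (69.9 per Mb), the middle 360 (78.4 per Mb) and the right 315 (68.6 per Mb). The middle share was 36.1% (33.2 to 39.2%), an interval whose lower end lies just under an even 33.3%. Regions of the left part were narrower, with a median of 305 bp against 404 bp in the middle and 409 bp in the right. Short regions under 100 bp were 15.6% of the left part, 10.6% of the middle and 11.1% of the right. The share reaching a q-value of 0.001 or less varied little, at 64.8%, 65.3% and 66.7% from left to right. The left end was not bare: the first region began 17.5 kb from the start of the sequence (17482 to 17656), and the first window held 5 regions. The shortened last window held 10. The span ends at the last region by definition, so whether sequence beyond it was bare cannot be told.

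With windows counted from the left end, all 3 empty windows lay close together in the left part. They were 1300001 to 1400000, 1700001 to 1800000 and 2000001 to 2100000, within 0.8 Mb of each other. Between and beside them the polymerase was not missing: from 1300001 to 2100000 there were 39 regions, or 48.8 per Mb. The window 1900001 to 2000000, just before the last empty window, held 18 of these 39, in joint second place on the chromosome. The windows in order from the first empty one held 0, 8, 5, 7, 0, 1, 18 and 0 regions. None of the 39 reached 2000 bp, and the widest had 1816 bp. This stretch was picked out after its counts were seen.

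The longest stretches without a region fell in the same part of the chromosome. The longest ran for 233 kb (1626930 to 1859591), followed by 188 kb (1220827 to 1409159), 139 kb (1962337 to 2100845) and 123 kb (910213 to 1032803). These 4 lay between 910213 and 2100845. The fifth, 115 kb, lay near the centre (6723916 to 6839057). In all, 12 gaps exceeded 100 kb, of which 5 were in the left part, 2 in the middle and 5 in the right. They took up 11.2% of the span, against 12.9% on I and 41.6% on V, the lowest and highest among the other autosomes. Broad regions were missing from the same stretch: no region of 2000 bp or more lay between 886041 and 2539463. This spacing of 1657 kb was the longest on III. It lay within the range of the longest such spacings elsewhere, from 1065 kb on II to 1883 kb on I and 1900 kb on V.

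Sparse windows beyond these were scattered. Another 9 windows held a single region each, and 8 held 2. The 9 solitary regions were from 121 to 725 bp wide, with a median of 396 bp close to the 380 bp of all members, and their q-values ranged widely. The 616 bp region at 11123415 to 11124030 had a q-value of 5.91e-16, while the 121 bp region at 2394106 to 2394226 had 0.00544. They lay at 909488 to 910212, 1859592 to 1859891, 3069330 to 3069735, 6723368 to 6723915, 7575308 to 7575646, 10908987 to 10909208 and 13119563 to 13119958, besides both just named.

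The fullest window was 4500001 to 4600000, with 21 regions over 16.7% of its sequence. It crosses the border between the left and middle parts and lies mostly in the left. The window before it, 4400001 to 4500000, held 17 regions, so 38 regions lay within 200 kb. In joint second place were 3 windows of 18 regions: 500001 to 600000 (5.69% covered), 1900001 to 2000000 (10.6% covered) and 7100001 to 7200000 (9.87% covered). The window 3600001 to 3700000 held 17. Full windows held many regions in close groups. With neighbours closer than 1000 bp joined, the fullest window fell from 21 regions to 8 stretches, where 3 of the 21 regions joined a run whose midpoint lies in the window before, and the 3 windows of 18 fell to 9, 6 and 11. The fullest window on III compared with 28 regions on I, 23 on V, 20 on II, 18 on IV and 8 on X.

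Number and coverage did not rank the windows in the same order. The most covered window, 9700001 to 9800000, had only 11 regions but 22.9% of its sequence covered, since it holds the widest region of the chromosome. Next came 12600001 to 12700000 with 16 regions and 17.6% covered, and then the window with most regions, 4500001 to 4600000, at 16.7%. Across the 138 windows, which share the same libraries, count and covered bases correlated with a Pearson r of 0.73. In the 9 windows with 15 regions or more, the median width of regions was 424 bp, and 68.6% of their 156 regions had a q-value of 0.001 or less. In the 36 windows with 1 to 4 regions the median was 350 bp and the share was 65.6% of 93 regions. Between these, the share was 63.2% in windows with 5 to 9 regions and 66.9% in those with 10 to 14. All of these shares lay near the 65.5% of all listed regions, and they did not rise steadily with the number of regions.

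Regions on III were mostly short. The median width was 380 bp (348 to 415 bp), and the quartiles were 195 and 697 bp. Only I had a lower median, 358 bp (334 to 384 bp). The median was 410 bp on II, 472 bp on IV, 530.5 bp on V and 674 bp on X. Regions under 100 bp numbered 123, or 12.3%, against 9.55% on the 4 other autosomes, and 6 of them were a single base wide. The single values on these autosomes ran from 6.53% on V to 11.6% on I. Of all regions in the list that were under 100 bp, 23.6% were on III. In the class from 500 to below 1000 bp the share was 17.4%, in that from 2000 to below 5000 bp it was 13.6%, and at 5000 bp or more it was 14.3%. Chromosome III thus made up more of the shortest class than of the broad ones. This was not particular to III. Chromosome I held 30.7% of the shortest class, 11.0% from 2000 to below 5000 bp and 23.8% at 5000 bp or more.

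Broad regions held much of the occupied sequence although they were few. There were 51 regions of 2000 bp or more, 5.12% of the members (3.84 to 6.68%), and they held 29.8% of the covered bases. The 4 other autosomes had 6.69% of such regions, holding 33.7%. III lay within their single values, from 3.54% holding 24.9% on I to 10.1% holding 39.7% on V. Per Mb the difference was smaller, 3.70 on III against a range from 3.27 on I to 4.45 on II. They fell in 41 of the 138 windows, and 17 were in the left part, 16 in the middle and 18 in the right. The 9 regions of 5000 bp or more summed to 60.3 kb, and 5 of these 9 lay in the middle part.

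**Figure D3:**
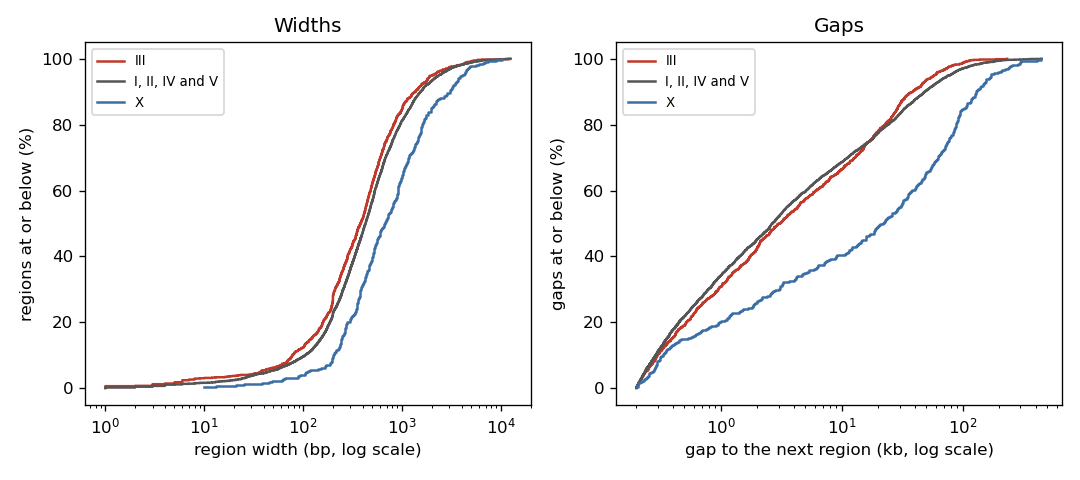
Cumulative share of regions by width (bp, left) and of gaps by length (kb, right), both on log scales, for III, for the 4 other autosomes together and for X. Around its median of 380 bp the III curve of widths lies to the left of the others, and its curve of gaps starts below and ends above that of the other autosomes.

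The widest region ran over 11945 bp (9764659 to 9776603) and also had the smallest q-value on III, 9.54e-217. It is a single uninterrupted call, with its nearest neighbours 15700 bp to the left and 4018 bp to the right. The second in both orders spanned 9811 bp (7729169 to 7738979, q-value 1.83e-189), and a short gap of 287 bp separated it from its left neighbour. The third widest, 6468 bp (6953680 to 6960147), had a q-value of only 2.09e-32 and ranked 46th on III by that value. Long coverage was thus not always matched by a q-value of the same rank.

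The 12 leading regions by q-value were spread over the chromosome, with 2 in the left part, 5 in the middle and 5 in the right. After the first pair came a 5084 bp region at 5939567 to 5944650 (q-value 2.42e-183) and a 4528 bp region at 12597063 to 12601590 (5.53e-155). A 2164 bp region at 5106920 to 5109083 had a q-value of 9.16e-142. In the left part, regions of 5775 bp at 345369 to 351143 (1.05e-136) and of 3041 bp at 833529 to 836569 (2.00e-135) followed. Of the 12, 11 were 2000 bp or wider. The exception was an 874 bp region at 12250173 to 12251046 with a q-value of 6.41e-125, ranked 181st by width on III, and the gap to its right was 93575 bp. The last 4 were a 4026 bp region at 13069386 to 13073411 (6.43e-121), a 2521 bp region at 12366683 to 12369203 (2.26e-113), a 3360 bp region at 9050901 to 9054260 (4.03e-109) and a 5093 bp region at 5023306 to 5028398 (3.33e-105).

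The q-values on III were spread much as in the whole list. A q-value of 0.001 or less was reached by 653 of 996 regions, or 65.6% (62.5 to 68.5%), beside 65.5% of all listed regions, so the members' share lay at the background. The median q-value on III was 0.000165, and single autosomes ran from 0.000104 on I to 0.000207 on IV. Among the 100 regions of the list with the smallest q-values, 20 were on III (20%, 12.7 to 29.2%), and among the 500 smallest there were 100 (20%, 16.6 to 23.8%). Of the 500 widest, 74 were on III (14.8%, 11.8 to 18.2%). Across the 996 regions, width and −log10 of the q-value had a Spearman rho of 0.65, a description of values that share libraries and a caller. On III the median q-value went from 0.00399 for regions under 100 bp to 1.80e-06 for 500 to below 1000 bp and 3.33e-105 for 5000 bp or more.

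**Figure D4:**
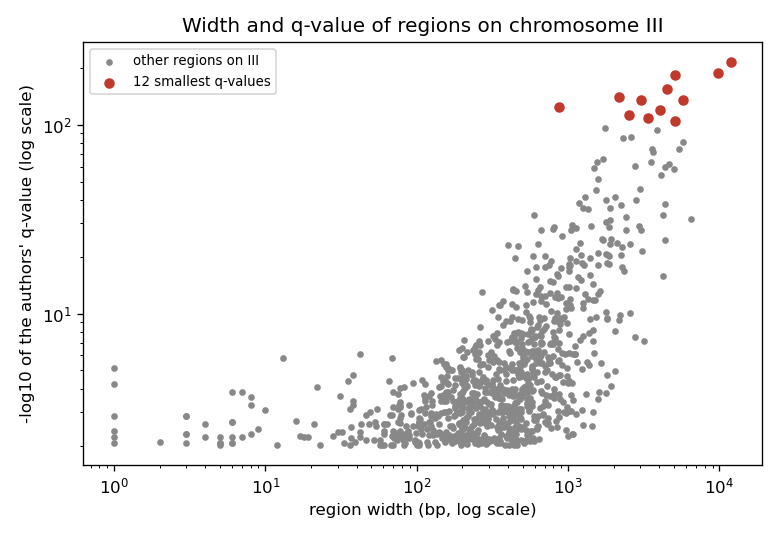
Width (bp, log scale) and −log10 of the authors' q-value (log scale) for the 996 regions on chromosome III, with the 12 smallest q-values in red. Of the red points 11 lie at 2000 bp or more, and the point to their left is the 874 bp region.

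Spacing on III lay within the range of the other autosomes by median. The median gap between neighbours was 3063 bp (2510 to 3745 bp), and the 4 other autosomes ran from 2026.5 bp on I to 3517 bp on IV. Of 995 gaps, 306 were under 1000 bp, or 30.8%. That share was lower on IV (29.7%) and X (20.3%) and higher on II (33.0%), V (34.9%) and I (37.5%). Gaps over 50 kb numbered 63, or 6.33%, which was above I (4.91%) and below II (7.85%), IV (12.4%), V (17.1%) and X (34.8%). Gaps over 20 kb were 22.0% on III and 22.4% on the 4 other autosomes together. Gaps of 10 to below 20 kb made up 11.5% on III and 8.91% on the other autosomes, from 8.51% on V to 9.10% on I. Gaps of 20 to below 50 kb made up 15.7% and 12.8%. For these, II at 15.4% was close to III, and I was lowest at 10.3%. These differences were not tested. No gap was shorter than 200 bp on any chromosome. For 51.3% of members (48.2 to 54.5%) another midpoint lay within 2000 bp, beside 61.9% on I, 51.1% on V, 50.6% on II, 48.7% on IV and 23.4% on X. Close neighbours were least common in the middle part, where 24.5% of gaps were under 1000 bp, against 35.8% in the left part and 32.7% in the right.

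Joined across gaps under 1000 bp, the 996 regions became 690 stretches. Of these, 524 were single regions and 166 were runs that took in 472 regions, or 47.4%, against 52.4% on the 4 other autosomes. Most runs were small: 98 were pairs, 33 had 3 regions and 18 had 5 or more. The run with most regions had 9, over 8201 bp (1926088 to 1934288), and it lay in the full window between the empty ones. The other runs of at least 7 regions were at 13714521 to 13724763, 3667382 to 3674141 and 571856 to 577566. The longest run spanned 13245 bp (12595585 to 12608829), with 6 regions filling 86.1% of it, among them the region with the fourth smallest q-value. A run of 12912 bp (4490808 to 4503719) also had 6 regions, crossed the border of both fullest neighbouring windows and was 85.6% filled. The third stretch by length was the widest region itself, with no neighbour joined. The longest joined stretches elsewhere were 20556 bp on II, 19268 bp on IV, 17287 bp on I, 13510 bp on V and 12342 bp on X.

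Wide regions had close company. On III 30 of the 51 regions of 2000 bp or more had a neighbour closer than 500 bp, or 58.8% (44.2 to 72.4%). The share was 52.5% for 1000 to below 2000 bp (42.3 to 62.5%), 36% for 500 to below 1000 bp (29.7 to 42.6%) and 23.8% for 100 to below 500 bp (20.1 to 27.8%). It was 30.1% for regions under 100 bp (22.1 to 39.0%). The other autosomes had 51.3% in the widest class and 29.7% for 100 to below 500 bp. No region of 2000 bp or more on III was over 20 kb from both neighbours, while 22 of 269 (8.18%) were on the other autosomes. The 35 narrower regions within 500 bp of a broad one had a median width of 806 bp, against 380 bp for all members. Of these 35, 28 (80%) had a q-value of 0.001 or less, beside 65.6% of all members, a difference that was not tested. Among all members of 500 to below 1000 bp, the class that holds this median width, the share was 83.1%.

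**Figure D5:**
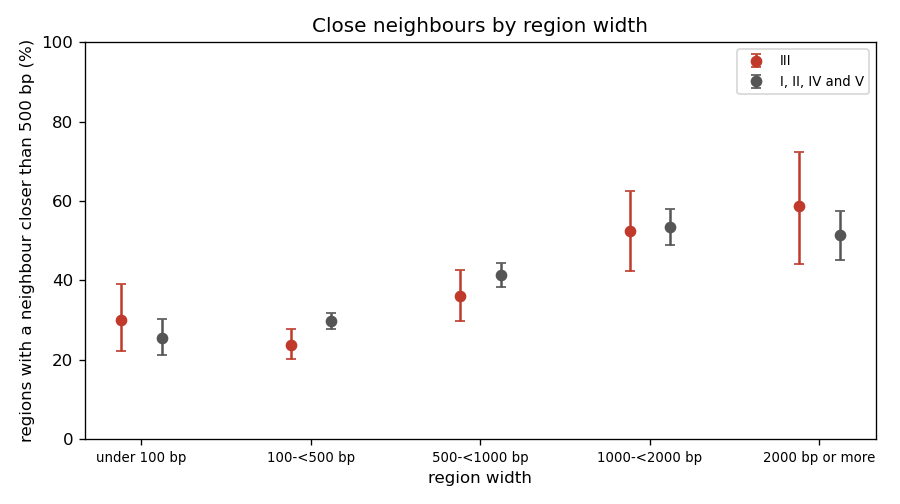
Share of regions with a neighbour closer than 500 bp (%, with exact 95% binomial intervals) by region width, for III and for the 4 other autosomes together. On III the share goes from 23.8% for 100 to below 500 bp to 58.8% for 2000 bp or more.

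At the other extreme, 65 members (6.53%) had no neighbour within 20 kb on either side. The most isolated was the 548 bp region at 6723368 to 6723915 (q-value 2.64e-05), whose nearest neighbouring midpoint was 102 kb away. It stood between gaps of 101 kb and 115 kb near the centre of the chromosome. Next came the 339 bp region at 7575308 to 7575646 (74.6 kb, q-value 0.000157), the 406 bp region at 2294826 to 2295231 (61.4 kb, q-value 0.000192) and the 194 bp region at 2233578 to 2233771 (61.0 kb, q-value 0.00462). The fifth was a 357 bp region at 6533862 to 6534218 (57.9 kb, q-value 0.00330). The 548 bp region was the widest of these 5.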

How the data were processed

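ChIP-seq of RNA polymerase II was analysed from 1 list deposited by the authors for 4 libraries (2 ChIP, 2 input). Embryos were crosslinked with formaldehyde (2%), quenched with Tris (100 mM), sonicated and immunoprecipitated, per the labels' protocols. That shared text names serum against GFP, while the sample labels name 8WG16, and the sample labels were followed. The deposited value per region is a q-value on build WormBase WS180, per the file headers, and PeakSeq is given in each row as the source. The file's name calls the list combined. Aligner, caller settings, filters, depth and the way replicates were joined are not given in the sources used here. All listed q-values are below 0.01, so weaker regions are not seen.

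Widths, gaps and window counts were computed from 1-based starts and ends. The span of a chromosome runs from position 1 to its last called base. Regions named in the text follow a rule: the 12 smallest q-values, 3 widest, 5 most isolated, all empty and the 5 fullest windows, 5 longest gaps, and the 3 longest and fullest joined runs. Solitary, most covered and megabase windows, the stretch around the empty windows and neighbours by width were chosen after their values were seen. The members, rule and alternatives were chosen with earlier results of these data known. The gene table (WBcel235) gave gene numbers only. Functions were tested on simulated lists. The software was matplotlib 3.10.9, scipy 1.17.1, pandas 2.3.3, numpy 2.4.6 and Python 3.11.15.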

Additional observations from a re-analysis of the deposited data

How the results depend on the processing

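Of 63 alternative values over 11 results, 37 stayed close to the value given and 26 did not. Close meant within 1.5 times (counts, densities, coverage, fullest window, longest gap) or within the interval of the value given (shares and medians). Fewer or joined regions lie behind most of the 26 by construction. The exceptions are the window sizes and the share in the middle part after joining. At a q-value of at most 0.001 there were 653 regions (47.4 per Mb), with a median width of 515 bp, a median gap of 5907 bp, 37.8% with another midpoint within 2000 bp and a median q-value of 3.30e-06. For the 50% smallest q-values there were 490 regions (35.6 per Mb), with a median width of 610 bp, a median gap of 9307 bp, 29.8% with a near midpoint, 8.70% empty windows, 12 regions in the fullest window and a median q-value of 1.14e-07. Without regions under 100 bp the median width was 442 bp, the near share 45.4% and the median q-value 6.67e-05. Joining neighbours closer than 500 bp gave a median gap of 5856 bp and a near share of 27.9%. Joining those closer than 1000 bp gave a median width of 448.5 bp, a median gap of 9307 bp, a near share of 11.2%, 12 stretches in the fullest window and 39.4% in the middle part. Empty windows were 13.4% at 50 kb and 0% at 200 kb. The longest gap ran from 233 to 239 kb throughout. No paired analysis was possible because both replicates were merged into these regions before deposit, and leaving out a replicate was impossible too. Without depths, a stretch below the threshold cannot be told from one without polymerase.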

Other observations

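Exactly 17 regions on III were 200 bp wide, or 1.71% of the members, against 30 (0.746%) on the 4 other autosomes and 1 on X. Widths from 200 to 209 bp were found in 32 members (3.21%), and widths from 190 to 199 bp in 26 (2.61%), against 1.89% and 1.64% on the other autosomes. Of the 123 members under 100 bp, 30 were under 10 bp, and their q-values as a class went down to 7.48e-07. Among members under 500 bp, the smallest q-values belonged to neighbours at 7142081 to 7142481 (401 bp, 6.57e-24) and 7141192 to 7141660 (469 bp, 1.57e-23). These values were picked out after they were seen and were not tested.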
